A study of Mus musculus with 2 samples.

Results

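Late differentiating cells with cornified genes were a small set of keratinocytes found among cells sorted as basal from the mouse cheek lining. They were chosen by their own RNA. A cell was a member when it had at least 500 detected genes and at most 10% mitochondrial UMIs, and met 4 limits set per 10000 UMIs of the cell. The keratins Krt4 and Krt13 together had to reach 350. The 6 cornified genes Cnfn, Lor, Sprr3, Crct1, Krt23 and Calm4 together had to reach 5. The stress-type genes Krt16, S100a8 and Alox15 together had to stay under 10, and the mitotic genes Top2a, Cenpf, Ube2c, Ccnb1, Nusap1 and Prc1 together under 6. A UMI (unique molecular identifier) marks 1 captured RNA molecule. The rule held 1267 of 15470 kept cells: 507 of 6907 in library 1 (7.34%, 95% exact binomial interval 6.74 to 7.98) and 760 of 8563 in library 2 (8.88%, 8.28 to 9.50).

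The lining of the mouse cheek is a stratified squamous epithelium that renews itself from a basal layer. Basal keratinocytes hold the keratins Krt5 and Krt14 and sit on hemidesmosomes, and as they leave the basement membrane they switch to Krt4 and Krt13, the keratin pair of mucosal suprabasal cells. Late in this course the cells make the cornified envelope, a shell of proteins such as loricrin, cornifelin and the small proline-rich proteins that transglutaminases crosslink beneath the membrane, together with barrier lipids and the proteases and inhibitors that govern shedding.

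The study captured 1 suspension of dissociated buccal mucosa on the 10x Genomics Chromium platform. The suspension came from 10 C57BL/6 females aged 12 weeks, pooled, with no treatment named. Cells were sorted for high CD104, the integrin beta 4 protein encoded by Itgb4, and the suspension was divided into 2 technical replicates, library 1 and library 2. The 2 libraries are therefore 1 independent sample: no test between groups of cells was possible, all differences below are given by size in each library, and intervals cover counting error only. The late cells were set against 3 groups of the same libraries. Early differentiating cells passed the Krt4 and Krt13 limit and the stress-type and mitotic limits but had under 5 of the cornified genes (857 and 1163 cells). Stress-type cells passed the Krt4 and Krt13 limit and the mitotic limit and had 10 or more of the stress-type genes (64 and 96 cells). All other kept cells numbered 6400 and 7803, most of them keratinocytes under the Krt4 and Krt13 limit.

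The files held 7215 barcodes with 67962712 UMIs in library 1 and 9076 barcodes with 73935792 UMIs in library 2, of which 308 and 513 were removed, all for mitochondrial UMIs. Kept cells had a median of 7690 and 6709 UMIs. The libraries shared 96 kept barcodes, and late cells carried 6 of these in library 1 and 8 in library 2, with no barcode late in both. Late cells were deep: their median was 17043 and 14673 UMIs, against 13325 and 10812 in early cells and 20158.5 and 16298 in stress-type cells. Of the late cells, 379 (29.9%) were among the 5% of kept cells of their library with the most UMIs. Doublets were neither called nor removed, and the part of depth and doublets in the values below was not tested beyond the depth-matched values given.

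The label was checked against its 6 markers, of which 5 entered the rule and describe the choice only. The sixth, Scel, was not used to choose the cells. It encodes sciellin, a precursor of the cornified envelope. Scel averaged 47.8 and 51.1 counts per 1000000 (CPM, the summed UMIs of a gene in a group over the summed UMIs of all genes in that group) in late cells of library 1 and library 2, against 5.66 and 7.18 CPM in early cells and 7.29 and 7.11 CPM in all other kept cells. In both libraries the late value was the highest of the groups. With each cell thinned to 3000 UMIs so that depth was equal, 13.8% of late cells in library 2 held a Scel UMI (11.4 to 16.5), against 1.98% of early cells (1.26 to 2.95), 2.19% of non-mitotic cells under the keratin limit and 2.86% (1 of 35) of cells with immune markers, a type that should lack the gene. Before thinning these shares were 37.9%, 6.88%, 4.55% and 2.86%, at median depths of 14673, 10812, 5303 and 7351 UMIs. The immune-marker cells were not free of keratinocyte RNA. After thinning, all 35 held a Krt4 UMI, and 74.3% held a Krt14 UMI, against 60.8% of late cells in library 2. The part of RNA from other cells in the values was not tested.

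The cells met the cornified limit in different ways. Most passed through Calm4, a calmodulin-like calcium-binding protein, or Krt23, a type I keratin. Calm4 held the most UMIs of the 6 genes in 578 cells (45.6%) and Krt23 in 557 (44.0%), while Cnfn led in 124 (9.79%), and Lor, Sprr3 and Crct1 led in 3, 2 and 3 cells. The sum of Krt23 and Calm4 alone reached 5 in 1149 cells (90.7%). The 4 envelope genes Cnfn, Lor, Sprr3 and Crct1 alone reached 5 in 252 (19.9%; 100 of 507 and 152 of 760), and 369 late cells (29.1%) held no UMI of any of these 4. Any cell with the 4 envelope genes at 5 or more meets the cornified limit by definition. Of the 349 such kept cells 252 were late cells (72.2%), and the others did not meet the keratin, stress-type or mitotic limit.

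**Figure D1:**
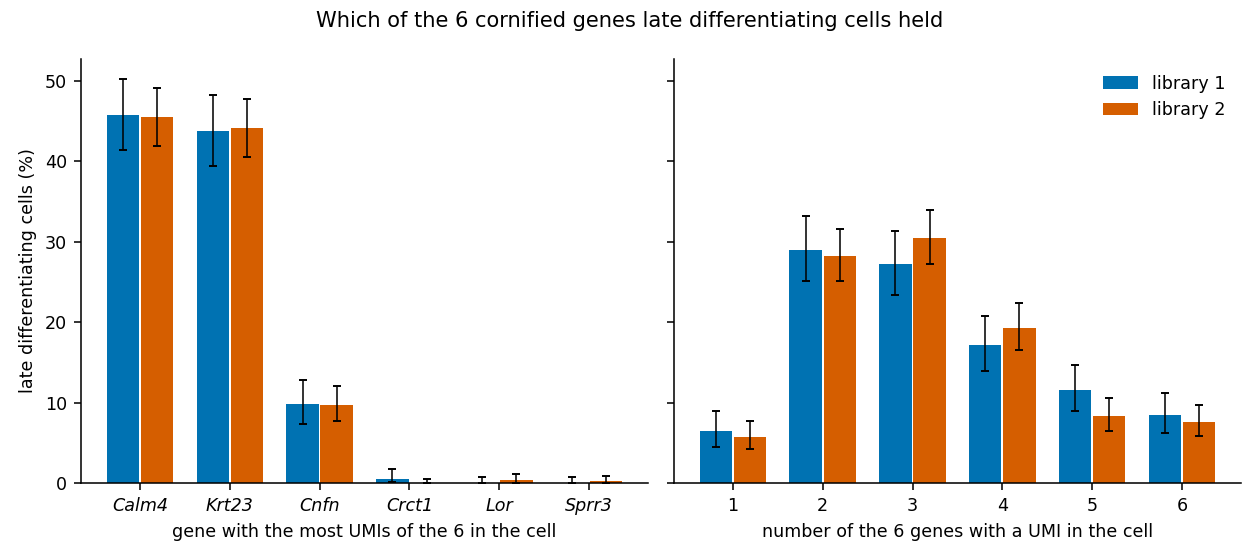
Share of late differentiating cells (%, bars with 95% exact binomial intervals, library 1 and library 2) by the cornified gene with the most UMIs in the cell (left) and by how many of the 6 genes had a UMI (right). Calm4 and Krt23 led in most cells, and most cells held UMIs of 2 or 3 of the 6 genes.

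The summed 6 genes had a median of 14.1 and 13.8 per 10000 UMIs in late cells, against 1.20 and 1.32 in early cells, and reached 215 in library 1 and 422 in library 2. Just inside the limit, 131 late cells had a sum of 5 to under 6, and just outside it, 150 early cells had a sum of 4 to under 5. Likewise 82 late cells had Krt4 and Krt13 at 350 to under 400, and 82 cells that met the other limits had them at 300 to under 350. The border is therefore a range in a continuous measure and not a gap. The rule genes differed between the libraries within the late cells: Cnfn was at 451 CPM in library 1 and 726 CPM in library 2, Lor at 91.4 and 175 CPM, Sprr3 at 69.9 and 137 CPM and Crct1 at 69.6 and 149 CPM, while Krt23 was at 765 and 755 CPM. Of 4360 genes measured in both, 4 were at least 1.5-fold higher and 3 at least 1.5-fold lower in library 2 than in library 1, and the 4 higher ones were Slpi, Sprr1a, Isg15 and Krt15.

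Markers of glandular, immune, fibroblast, endothelial and melanocyte cells were low, while those of basal cells and skin epidermis were present. The 7 basal markers summed to 1359 and 1679 CPM in late cells, against 2091 and 2352 CPM in early cells and 12687 and 12690 CPM in non-mitotic cells under the keratin limit. Krt14 and Krt5 together were above 50 per 10000 UMIs in 13 late cells. Fibroblast markers summed to 0.107 and 0 CPM, with Col1a1, Col3a1, Lum and Pdgfra at 0. Langerhans cell markers summed to 14.3 and 15.4 CPM with Cd207 at 0, against 351 and 799 CPM in non-mitotic cells under the keratin limit. Glandular markers summed to 7.25 and 10.6 CPM, endothelial markers to 1.28 and 0.983 CPM with Kdr at 0, melanocyte markers to 0.213 and 0.164 CPM with Dct at 0, and T and NK cell markers to 2.67 and 4.67 CPM. No late cell had immune markers at 50 or more per 10000 UMIs. The 5 skin epidermis markers (Krt1, Krt10, Krt2, Krt77 and Flg2) summed to 76.8 and 95.6 CPM in late cells. Their sums were 67.0 and 73.9 CPM in early cells and 45.9 and 45.0 CPM in stress-type cells. In non-mitotic cells under the keratin limit they were 210 and 228 CPM.

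Beyond the 6 genes, the difference between late and early cells was narrow in extent, and large in size for the leading genes. The counts at 2-fold are given at the end. A gene counted as higher or lower when each library showed a difference of 1.5-fold or more (a log2 ratio of 0.58) and the directions agreed. Only genes with a mean of at least 20 CPM over the 2 groups were judged, with the genes of the rule and mitochondrial genes left out. Against early cells 137 of 4426 genes (3.1%) were higher in late cells and 65 (1.47%) were lower. Among the genes higher in late cells were the Ly6 family member Ly6g6c, serpins, Sprr1a, the wound-type keratins Krt6a and Krt6b, cornified envelope scaffolds, desmosomal cadherins and enzymes of cholesterol synthesis. Those lower included the prolactin receptor, Wnt16, metallothionein Mt3 and the cyclin Ccnd1. The cyclin Ccnd2 was lower by the size rule (−0.72) but was at −0.43 with cells thinned to 3000 UMIs.

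Ly6g6c had the highest ratio of all genes by the smaller of its library values. It encodes a member of the Ly6/uPAR family of small GPI-anchored surface proteins and lies at chr17:35065388-35070050 (GRCm38, GENCODE M21). It stood at 261 and 326 CPM in late cells, against 18.8 and 19.1 CPM in early cells (log2 ratio 3.94, 95% counting interval 3.84 to 4.11). Thinned to 3000 UMIs, 24.2% of late cells in library 2 held a Ly6g6c UMI (21.2 to 27.4), against 5.16% of early cells (3.96 to 6.59) and 0 of 35 immune-marker cells (up to 10.0% by the same interval), so the higher value also showed at equal depth. In stress-type cells the thinned share was 17.7% (10.7 to 26.8), an interval that overlaps that of late cells. Unthinned, the shares were 52.0% of late, 16.6% of early, 39.6% of stress-type and 2.86% of immune-marker cells.

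Genes of the envelope itself followed. Sprr1a, a small proline-rich precursor crosslinked into the envelope (chr3:92483952-92485895), was at 218 and 383 CPM in late cells, against 36.1 and 32.7 CPM in early cells, a log2 ratio of 2.60 in library 1 and 3.55 in library 2. The late value of library 2 was thus well above that of library 1. Scel (chr14:103513342-103612797), with the values given above, had a log2 ratio of 2.95 (2.70 to 3.19). Tgm1, a transglutaminase that crosslinks the envelope at the membrane, was at 68.8 and 71.0 CPM in late cells, against 28.1 and 27.5 CPM in early cells (1.33; 1.21 to 1.47). Sbsn, suprabasin, was at 1571 and 1499 CPM against 611 and 587 CPM (1.36), Krtdap, keratinocyte differentiation-associated protein, at 6562 and 6991 CPM against 2945 and 3045 CPM (1.18), and the plakin scaffolds Evpl and Ppl had ratios of 0.91 and 0.97. Of the 10 measured genes of the list of cornified envelope and keratinocyte differentiation genes outside the rule, 8 were higher and 0 lower, with a median log2 ratio of 1.08 against −0.04 over all measured genes. The higher genes under 20 CPM in early cells, measured through the late cells, were 1 of these 8, 1 each of the cholesterol and protease genes counted below, and 29 of all 137. Other envelope genes had few UMIs: the involucrin gene Ivl was at 0.53 and 0.16 CPM and the cornulin gene Crnn at 0.32 and 0.49 CPM in late cells. Of the genes that lie by position in the epidermal differentiation complex (chr3:90511034-93564643) outside the rule, 10 of 75 were measured, of which 1 was higher, Sprr1a, and 0 lower.

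The promoters of 4 of the genes with the highest ratios of late over early cells are shown, to set the motifs they hold beside the values: Ly6g6c, Scel, Sprr1a and Cldn4, a claudin of tight junctions. They were picked after their motifs were seen, and the windows of Slpi and Tmem45a hold none of the 3 motifs. Each is the 250 bases before the RefSeq transcription start (GRCm38.p6), 5′ to 3′ on the gene's strand. Capitals mark the AP-1 core TGANTCA and the TATA-type motif TATAAA, both searched on both strands. The grainyhead core AACCNGTT was also searched and is in none of the 4 windows, and no motif overlaps another in them.
Ly6g6c (chr17:35067075-35067324, plus strand): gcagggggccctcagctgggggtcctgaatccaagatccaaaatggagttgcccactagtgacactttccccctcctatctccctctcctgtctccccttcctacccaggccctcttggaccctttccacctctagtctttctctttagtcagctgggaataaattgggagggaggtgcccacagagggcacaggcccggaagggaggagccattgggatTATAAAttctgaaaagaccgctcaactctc
Scel (chr14:103513091-103513340, plus strand): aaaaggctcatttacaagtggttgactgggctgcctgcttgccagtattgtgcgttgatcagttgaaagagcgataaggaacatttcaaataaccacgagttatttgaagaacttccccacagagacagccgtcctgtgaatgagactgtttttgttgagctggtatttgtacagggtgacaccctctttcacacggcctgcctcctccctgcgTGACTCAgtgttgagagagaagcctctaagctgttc
Sprr1a (chr3:92485882-92486131, minus strand): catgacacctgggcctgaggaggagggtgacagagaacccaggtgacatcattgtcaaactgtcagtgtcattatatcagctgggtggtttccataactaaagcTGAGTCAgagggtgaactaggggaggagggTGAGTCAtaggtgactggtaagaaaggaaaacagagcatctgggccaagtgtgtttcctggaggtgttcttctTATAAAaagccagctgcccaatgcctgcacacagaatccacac
Cldn4 (chr5:134946935-134947184, minus strand): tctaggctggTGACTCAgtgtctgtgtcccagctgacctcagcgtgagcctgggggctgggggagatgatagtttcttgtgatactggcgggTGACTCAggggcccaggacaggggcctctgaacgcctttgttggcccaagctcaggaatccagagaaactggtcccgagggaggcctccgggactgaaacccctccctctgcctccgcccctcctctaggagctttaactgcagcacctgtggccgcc

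TGANTCA was in 20 of 115 promoters (17.4%) of the genes higher in late than in early cells, of which 97 of 137 were matched by name, in 6 of 71 promoters (8.45%) of the genes lower, in 4.44% of the promoters of all measured genes and in 6.75% of all 32851 RefSeq promoters. Sprr1a and Cldn4 each hold it more than once. AACCNGTT was in 1 of 115 promoters (0.870%) of the higher genes, in 65 of 4343 of those of all measured genes and in 1.79% of all promoters. TATAAA was in 12 of 115 (10.4%), in 6.24% of those of all measured genes and in 12.4% of all promoters. These are matches of letters in a fixed window and are given as a description.

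Keratins, proteases and junction genes also differed between late and early cells. Cldn4 was at 39.2 and 35.4 CPM in late cells, against 5.16 and 5.52 CPM in early cells (2.80; 2.53 to 3.07). Krt6b, a type II keratin of wounded and mucosal epithelium, was at 489 and 485 CPM in late cells, against 107 and 67.5 CPM in early cells (2.51), and Krt6a had a ratio of 2.06. The pair is similar in sequence, and how reads were divided between the copies is not known here. Dsg1a and Dsc2, desmosomal cadherins, had ratios of 0.94 and 0.81, and the other 8 measured desmosome genes stayed within 1.5-fold. Of the 29 measured proteases, protease inhibitors and nucleases, 13 were higher and 1 lower, with a median of 0.56. Slpi, the secretory leukocyte protease inhibitor, was at 21.9 and 60.1 CPM in late cells, against 1.94 and 2.27 CPM in early cells (3.49 in library 1 and 4.73 in library 2), and 9.61% of late cells in library 2 held a UMI of it. Spink5, an inhibitor of the kallikreins that break desmosomes, was at 181 and 216 CPM against 49.2 and 47.2 CPM (2.04), Tmprss11d, a membrane serine protease, at 172 and 199 CPM against 42.1 and 51.7 CPM (1.99), and Serpinb3a at 1651 and 1999 CPM against 496 and 583 CPM (1.76). Ctsl, a lysosomal cysteine protease, was the one that was lower (−0.88).

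The genes of lipid and sterol supply were higher in smaller steps. Of 17 measured genes of cholesterol synthesis and uptake, 9 were higher and 0 lower (median 0.66). Fdps, which makes farnesyl diphosphate, was at 373 and 403 CPM in late cells, against 154 and 174 CPM in early cells (1.25; 1.19 to 1.30). Cyp51, the lanosterol demethylase, had a ratio of 1.35 and Sqle, squalene epoxidase, one of 1.13. Of 16 barrier lipid and lipoxygenase genes, 5 were higher and 0 lower (median 0.52), led by Elovl4, which extends very long chain fatty acids (1.30). The other 4 were Elovl1, Elovl6, Elovl7 and Acer1, and those of Elovl1 (0.43), Elovl7 (0.53) and Acer1 (0.56) were under 1.5-fold when both groups were limited to cells of 10000 to 20000 UMIs.

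Other genes among the highest ratios had varied roles. Rbp2, a cellular retinol-binding protein, was at 143 and 172 CPM in late cells, against 22.9 and 19.7 CPM in early cells (2.88; 2.78 to 3.04). Tmem45a, a transmembrane protein, was at 48.2 and 52.2 CPM against 5.41 and 7.41 CPM (2.99). Dapk2, a calmodulin-regulated kinase, was at 56.5 and 49.6 CPM against 9.64 and 8.85 CPM (2.52). Gdpd1, a phosphodiesterase of lysophospholipids, had a ratio of 2.58, Teddm3 one of 2.24 and Nipal1, a magnesium transporter of the NIPA family, one of 2.22. In all of these both late values lay above both early values. Of the 26 measured epithelial transcription factors 2 were higher. Klf4, which drives barrier genes, was at 177 and 170 CPM against 85.4 and 80.4 CPM (1.07), and Grhl3, a grainyhead factor of the barrier, had a ratio of 0.66 that was 0.54 in cells of 10000 to 20000 UMIs. The immediate early gene Jun (0.98) and the heat shock gene Hspa1a (0.91) were the genes of the immediate early and dissociation list that were higher, of 12, and both lost this without the 5% of cells with most UMIs (0.53 and 0.14).

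The genes lower in late than in early cells were fewer and the ratios smaller. Prlr, the prolactin receptor, was at 31.6 and 40.1 CPM in late cells, against 168 and 167 CPM in early cells (−2.23; −2.31 to −2.09). Wnt16, a Wnt ligand, was at 10.8 and 10.2 CPM against 29.7 and 31.2 CPM (−1.54). Mt3, a metallothionein, was at 619 and 570 CPM against 1407 and 1237 CPM (−1.15). These 3 had late values under both early values. Of all 65 lower genes, 15 were under 20 CPM in late cells and were measured through the early cells, Wnt16 among them. Ccnd1, cyclin D1, was at 31.0 and 33.9 CPM against 71.1 and 72.9 CPM (−1.15). Ifitm3, an interferon-induced membrane protein, had a ratio of −1.11, Serpinb10 one of −1.43, the chitinase-like Chil4 one of −1.20, the secreted lectin Clec11a one of −1.08 and carbonic anhydrase Car12 one of −1.08. The Chil4 ratio is one of summed UMIs, and the median cell differed less. Its Chil4 level was 2.62 and 2.96 per 10000 UMIs in late cells, against 2.92 and 3.18 in early cells. The thrombin receptor Thbd (−1.08) and the TEAD cofactor Vgll4 (−0.99) were also among the 12 lowest. Thbd was at −0.58 in cells of 10000 to 20000 UMIs, just under 1.5-fold.

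Among the basal genes, Krt5 and Krt15 were lower in late than in early cells. Krt5 was at 292 and 277 CPM in late cells, against 521 and 513 CPM in early cells (−0.86), and Krt15 at 490 and 743 CPM against 850 and 1133 CPM (−0.70). With each library centred on its median gene, 1 of these 2 stayed lower, and Krt15 no longer passed in both libraries. Krt14 (−0.16), Col17a1 (−0.13), Itga6 (−0.54) and Trp63 (−0.30) stayed within 1.5-fold, and 0 of 5 measured hemidesmosome and basement membrane genes were higher or lower, where 3.1% of all measured genes were higher and 1.47% lower. Itgb4, which encodes the sorted surface protein, was at 8.74 and 9.34 CPM in late cells, against 14.1 and 12.2 CPM in early cells, under the level set for the size rule.

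**Figure D2:**
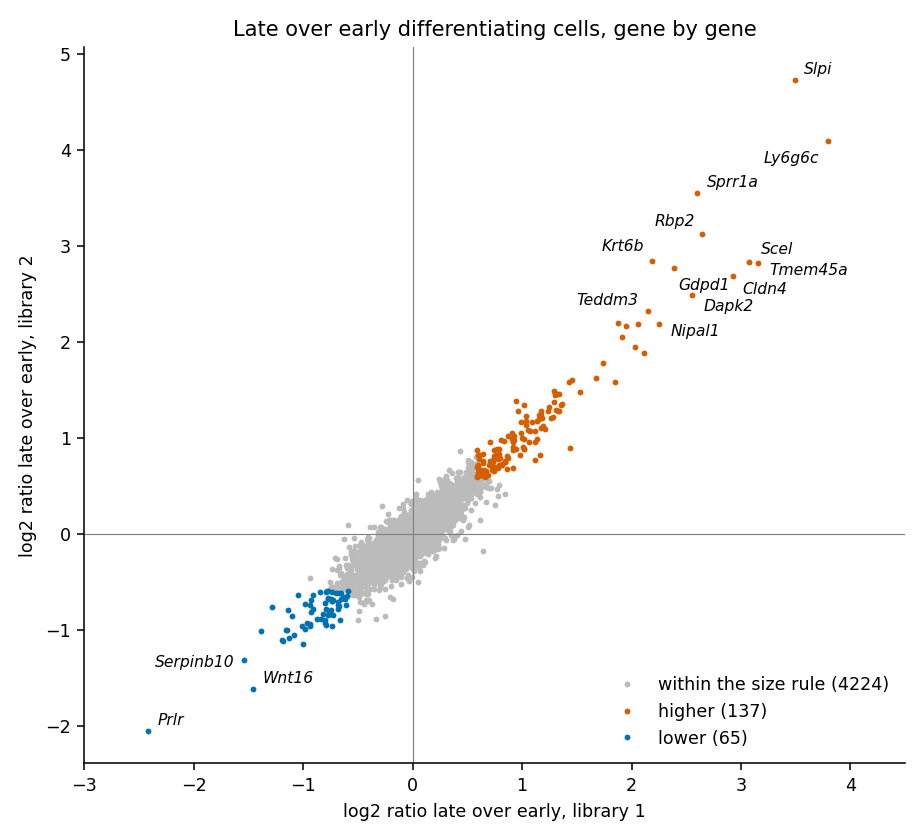
Log2 ratio of each of the measured genes in late over early differentiating cells, library 1 on the x axis and library 2 on the y axis, with genes at least 1.5-fold higher or lower in both libraries in colour. The 137 higher genes reach further from 0 than the 65 lower genes, and Slpi and Sprr1a lie above the diagonal since their late level was higher in library 2.

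Within the late cells, gene levels also moved with the amount of cornified RNA. The cells were divided by their summed 6 genes into 4 bins: 5 to under 10 (461 cells), 10 to under 20 (378), 20 to under 50 (300) and 50 and over (128; 46 in library 1 and 82 in library 2). The bins use the rule's genes, so the 6 genes themselves are left out. Depth moved with the bins, from low to high: the median was 15822, 17585, 19253 and 23335.5 UMIs in library 1 and 12915, 14336, 16400 and 18665.5 in library 2. The mitochondrial share moved the other way, at 3.03, 2.77, 2.60 and 2.24% in library 1. The top and bottom bins were also compared with every cell thinned to 3000 UMIs and without the 5% of cells with most UMIs. Genes named here whose mean ratio did not stay 1.5-fold in the same direction are given with their values. The part of the mitochondrial share was not tested.

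Comparing the highest with the lowest bin, 285 of 4290 genes (6.64%) were higher and 250 (5.83%) lower, and without the 5% of cells with most UMIs 160 were higher and 132 lower. Of all 4290 measured genes, 301 stepped up and 327 stepped down over all 4 bins in both libraries. Of the 285 genes, 193 stepped up, and of the 250, 132 stepped down. The 285 and 250 were chosen by their top and bottom bins, so steps among them are in part set by the choice. Ly6g6c was at 50.1, 90.6, 330 and 1144 CPM over the 4 bins of library 1 and at 41.2, 76.0, 230 and 1541 CPM in library 2. Scel was at 16.2, 37.0, 65.8 and 121 CPM in library 1 and at 19.2, 40.3, 58.5 and 126 CPM in library 2. Both genes rose at every step in each library.

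The genes with the highest ratios of the top over the bottom bin had varied roles. Alox12b, the 12R-lipoxygenase of the lipid envelope, was at 135 and 163 CPM in the top bin, against 4.40 and 4.40 CPM in the bottom bin (log2 ratio 5.08; 4.59 to 5.70), and Aloxe3, the lipoxygenase that acts after it, at 65.3 and 83.1 CPM against 6.76 and 5.18 CPM (3.64). Slpi was at 131 and 346 CPM against 2.03 and 1.04 CPM (6.01 in library 1 and 8.38 in library 2), the bottom values resting on 6 and 4 UMIs. Cldn17, a claudin, was at 42.2 and 36.2 CPM against 1.01 and 1.04 CPM (5.25; 4.13 to 6.57), from 3 and 4 UMIs in the bottom bin. Sprr1b was at 148 and 182 CPM against 6.76 and 5.44 CPM (4.76), and Sprr1a at 785 and 1629 CPM against 68.3 and 71.0 CPM (3.52 and 4.52). Lypd5, of the Ly6/uPAR family, was at 48.0 and 107 CPM, against 5 UMIs and 1 UMI in the bottom bin (5.46 to 8.06), and Cyp2a5, a cytochrome P450, at 31.7 and 107 CPM, against 5 and 3 UMIs (5.08 to 7.32). Ly6g6c and Sprr1a were the ones of the 8 highest genes above 20 CPM in the bottom bin.

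By list, the top bin had 9 of 11 measured cornified envelope genes higher and 0 lower, 11 of 21 barrier lipid genes higher and 0 lower, 14 of 22 cholesterol genes higher and 0 lower, and 18 of 35 proteases and inhibitors higher and 1 lower. These counts rest in part on the level set for the size rule: of the higher genes, 2 of the 9, 4 of the 11, 5 of the 14 and 7 of the 18 were under 20 CPM in the bottom bin and were measured through the top bin, as were 86 of all 285. Examples were Sptlc3, a subunit of the enzyme that starts sphingolipid synthesis (2.45), Fdps (650 and 795 CPM in the top bin, against 247 and 240 CPM in the bottom bin), Spink5 (441 and 561 CPM against 68.3 and 85.0 CPM), Klk14, a kallikrein protease (25.9 and 57.7 CPM against 3.04 and 0.52 CPM), and Wfdc5, of the same protein family as Slpi (3.19). Of 25 epithelial transcription factors 5 were higher: Klf4 (310 and 292 CPM against 129 and 112 CPM), Hopx (1.71), Grhl1 (0.94), Grhl3 (0.89) and Ovol1 (0.75). Trp63, the basal p63 factor, Tfap2a and Nfe2l2, the oxidative stress factor, were lower (−0.83 for Trp63 and −0.82 for Nfe2l2). Without the 5% of cells with most UMIs, Trp63 was at −0.34 and Grhl3 at 0.53, both within 1.5-fold.

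Lower in the top bin were Mt3 (122 and 148 CPM, against 1051 and 841 CPM in the bottom bin), Prlr (4.80 and 10.8 CPM against 61.9 and 64.5 CPM), the chemokine Cxcl14 (3.84 and 9.71 CPM against 54.1 and 59.1 CPM) and Ccnd1 (−1.67). Of all 250 lower genes, 79 were under 20 CPM in the top bin and were measured through the bottom bin, Prlr and Cxcl14 among them. Car12 (−2.17), Clec11a (−2.36), the membrane metalloprotease Mmp14 (−1.90) and the actin-binding Cotl1 (−1.61) and Plek2 (−1.63) were lower too. Among 22 glutathione and redox genes 8 were lower and 3 higher: Sod1, superoxide dismutase (−1.24), and Mgst1 (−1.36) were among the lower, and Aldh3a1, Gsto1 and Gsta4 were the higher. Gclc, of glutathione synthesis, was lower by the size rule (−1.02) but was at −0.21 with cells thinned to 3000 UMIs and at −0.34 without the 5% of cells with most UMIs. The top and bottom bins thus differed in redox genes in both directions. Fos was higher in the top bin (1.46) but at −0.65 without the 5% of cells with most UMIs.

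**Figure D3:**
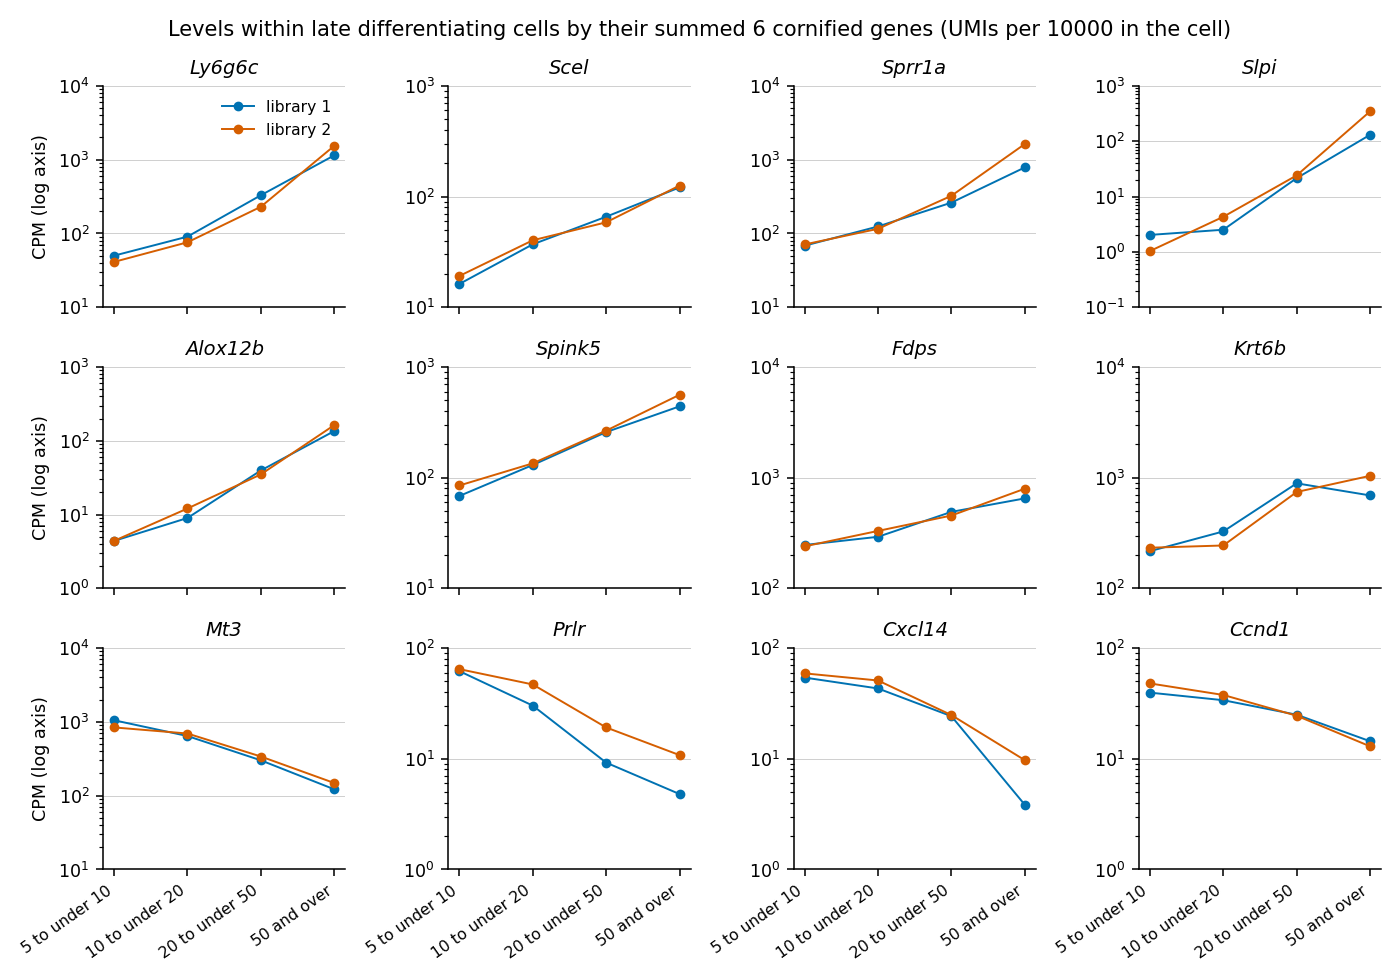
Level (CPM, log axis) of 12 genes outside the rule over 4 bins of late cells by their summed 6 cornified genes, low to high, with 1 line per library. Ly6g6c, Scel, Sprr1a, Slpi, Alox12b, Spink5 and Fdps are highest in the bin of 50 and over in both libraries, Krt6b is lower in that bin than in the one before it in library 1, and Mt3, Prlr, Cxcl14 and Ccnd1 are lowest there.

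Late cells led by Calm4 (232 and 346) differed little from those led by Krt23 (222 and 335). Of 4388 genes, 7 (0.16%) were higher in the Calm4-led cells and 0 (0%) lower. They were Ly6g6c (288 and 395 CPM, against 99.3 and 83.0 CPM in Krt23-led cells; 1.89), Slpi (1.94), Sprr1a (238 and 456 CPM against 107 and 117 CPM; 1.56), Alox12b (1.30), Krt6b (1.08), Tmem45a (1.05) and Cysrt1 (0.76). The list holds 2 genes of the envelope and its lipids, Sprr1a and Alox12b. The leading gene moved with the cornified sum. Calm4 had fewer summed UMIs than Krt23 in the bottom bin (766 against 1072 in library 1, 962 against 1443 in library 2). In the top bin it had more (3384 against 1604, 7609 against 2304). Ly6g6c, Slpi, Sprr1a and Alox12b also rose over the bins. The part of the cornified sum in the 7 calls was not tested.

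Stress-type cells differed from late cells in a chitinase-like gene, small proline-rich proteins, interferon genes and lipid genes. Of the 160 stress-type cells, 53 had the 6 cornified genes at 5 or more. Against stress-type cells 145 of 4244 genes (3.42%) were higher in late cells and 99 (2.33%) lower, and with each library centred on its median gene the split was 81 higher and 136 lower, so the balance between the directions rests on the scaling. Of the 145, 55 were under 20 CPM in stress-type cells and were measured through the late cells. Of the 99, 28 were under 20 CPM in late cells and were measured through the stress-type cells. These 28 held 3 of the 5 lower cornified envelope genes. Lower in late cells were Chil4, a chitinase-like protein, at 2605 and 2853 CPM in late cells, against 88722 and 98901 CPM in stress-type cells (−5.10), and Sprr2a3, a small proline-rich protein, at 48.9 and 46.5 CPM against 1683 and 1761 CPM (−5.17). Sprr2a1 (−4.95), Sprr2a2 (−5.28) and Sprr2b (−4.89) were lower alike. These copies are nearly identical, as are Chil3 and Chil4, and their split is uncertain. Pyy, a peptide hormone, had 1 and 6 UMIs in late cells, against 95 and 27 in stress-type cells (−8.30 to −5.87).

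Endoplasmic reticulum and interferon genes were lower in late than in stress-type cells as well. Of 14 endoplasmic reticulum chaperone and stress genes, 9 were lower and 0 higher (median −0.70, against 0.16 over all measured genes), among them Hspa5, the chaperone BiP, at 224 and 235 CPM in late cells, against 408 and 512 CPM in stress-type cells (−0.99), and Sdf2l1 (−1.72). Of 10 interferon response genes, 8 were lower and 0 higher, of which 4 were under 20 CPM in late cells and were measured through the stress-type cells: Bst2 was at 24.7 and 24.9 CPM against 115 and 122 CPM (−2.26), and the immunoproteasome subunit Psmb8 at 5.76 and 8.52 CPM against 91.0 and 55.4 CPM (−3.34). Krt6b, high in late against early cells, was lower than in stress-type cells, at 489 and 485 CPM against 946 and 1105 CPM (−1.07), and this was −0.53 when late cells were limited to those with the 4 envelope genes at 5 or more. Sprr1a was at 218 and 383 CPM in late cells and 362 and 315 CPM in stress-type cells, in opposite directions in the 2 libraries.

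Some lipid and redox genes were higher in late than in stress-type cells. Glul, glutamine synthetase, was at 80.4 and 63.9 CPM in late cells, against 10.8 and 12.2 CPM in stress-type cells (2.65; 2.14 to 3.15). Sptssb, a small subunit of serine palmitoyltransferase, was at 109 and 115 CPM against 18.6 and 27.4 CPM (2.31), Ces1d, a carboxylesterase, at 199 and 194 CPM against 53.0 and 45.7 CPM (2.00), and Alox12b at 30.1 and 38.2 CPM against 4.30 and 7.91 CPM (2.54). Each was higher in late cells in both libraries. Scel was at 47.8 and 51.1 CPM against 10.8 and 11.6 CPM (2.15), and Pof1b, an actin-binding protein of epithelial junctions, had a ratio of 1.84, Dapk2 one of 2.69 and Plxna1, a plexin receptor, one of 2.03. Of 18 barrier lipid and lipoxygenase genes 5 were higher and 1 lower, which became 3 and 1 on the centred scale. The lower one was the lipoxygenase gene Alox12e. Of 22 glutathione and redox genes 7 were higher and 1 lower, led by Gsta3 (1.48), Aldh3a1 (1.42) and Gstm1 (1.27), and Txn1 was the lower one. On the centred scale the redox counts became 5 and 1. Of 17 cholesterol genes 7 were higher and 0 lower, which became 3 and 0 on the centred scale, and 3 of the 7 were under 20 CPM in stress-type cells. The stress-type group held 64 and 96 cells, and its low values rest on few UMIs.

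**Figure D4:**
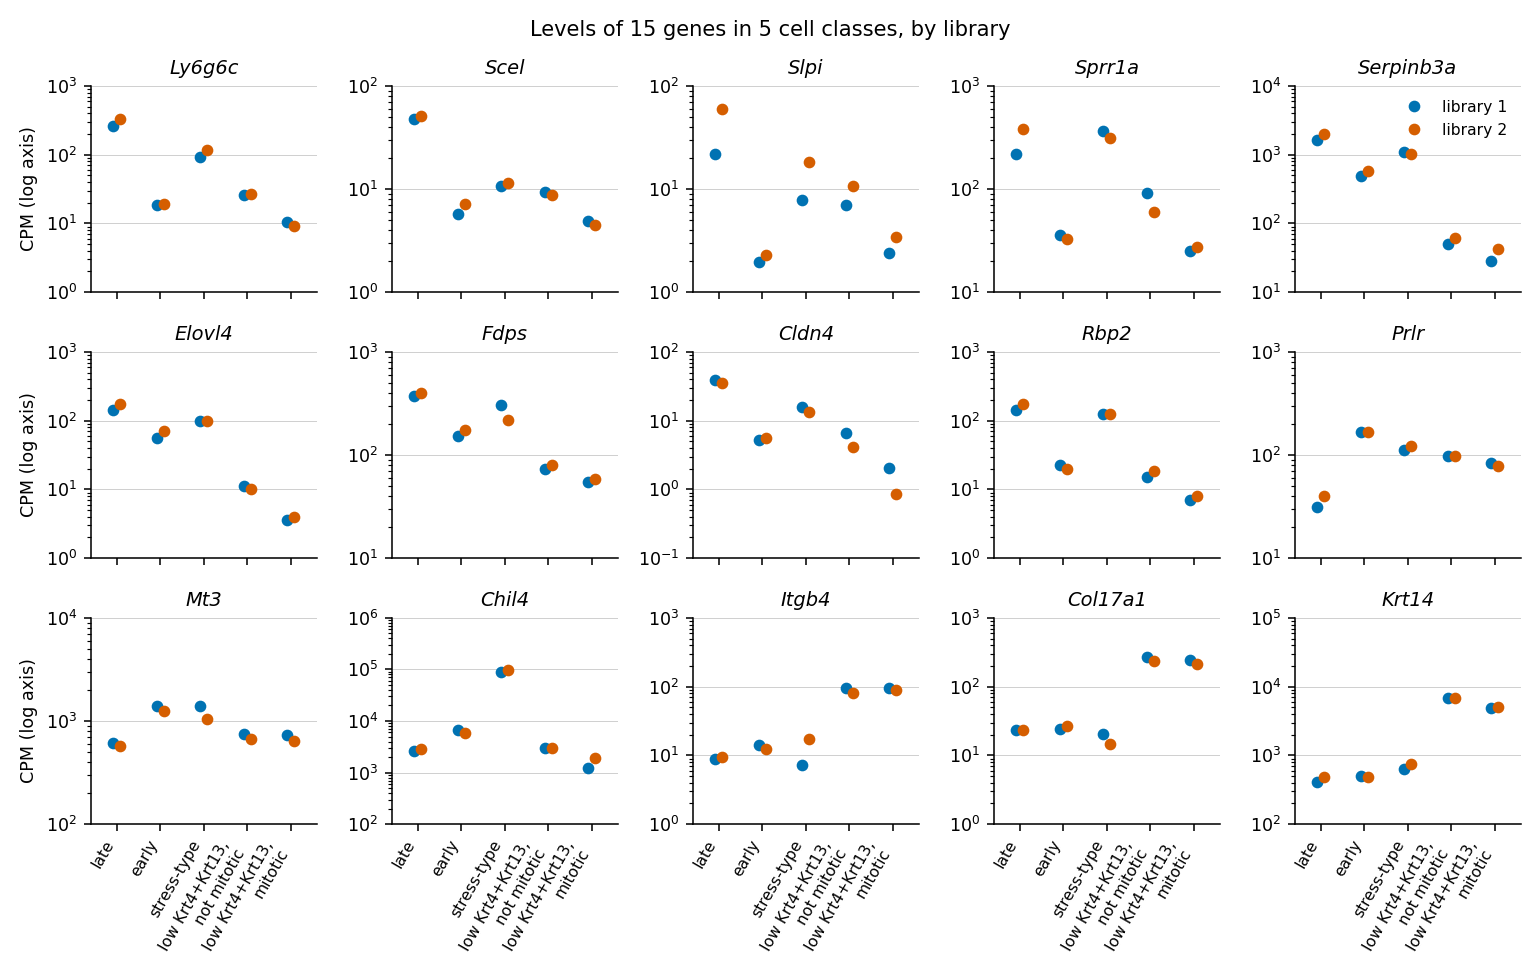
Level (CPM, log axis) of 15 genes in late, early and stress-type cells and in non-mitotic and mitotic cells under the Krt4 and Krt13 limit, with 1 point per library. Ly6g6c, Scel, Elovl4, Fdps and Cldn4 are highest in late cells in both libraries, Prlr and Mt3 lowest there, Chil4 highest in stress-type cells, and Itgb4, Col17a1 and Krt14 highest in the cells under the keratin limit.

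Against all other kept cells, 389 of 4824 genes (8.06%) were higher in late cells and 983 (20.4%) lower. The median gene was at −0.19, and centred on it the numbers were 568 and 653. Many other cells were mitotic while the rule kept mitotic cells out, so low values of mitotic and replication genes are set by the choice: the 12 lowest genes were mitotic, and 7 of 7 DNA replication genes were lower. Of the 7 measured hemidesmosome and basement membrane genes 6 were lower, with Itgb4 at 8.74 and 9.34 CPM in late cells, against 75.8 and 66.5 CPM in all other cells (−2.97), and Col17a1 at 23.5 and 23.1 CPM against 202 and 176 CPM (−3.02). Of these 6 genes, 2 were under 20 CPM in late cells and were measured through all other cells. So were 5 of the 7 replication genes and 386 of all 983 lower genes. The late cells thus had little RNA for the protein by which they were sorted.

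The highest ratios against all other cells were those of Ly6g6c (261 and 326 CPM, against 22.5 and 22.3 CPM in all other cells; 3.70; 3.67 to 3.80), Serpinb3a (1651 and 1999 CPM against 168 and 205 CPM; 3.29) and Nipal1 (35.8 and 37.3 CPM against 3.80 and 3.89 CPM; 3.25). Next came Teddm3 (3.31), Rbp2 (3.13), Cldn4 (3.11), Gdpd1 (3.06), Serpinb12 (2.87), Elovl4 (2.78), Scel (2.78), Sdr16c6, a short-chain dehydrogenase (2.75), and F3, tissue factor (282 and 307 CPM against 41.5 and 49.2 CPM; 2.70). The comparisons with early, stress-type and all other cells share the late cells, so their values are given side by side and no overlap is drawn from them. Of 11 cornified envelope genes 10 were higher and 1 lower (median 1.90), of 17 cholesterol genes 15 and 0 (1.24), of 17 barrier lipid genes 14 and 1 (1.02), of 10 desmosome genes 7 and 1 (0.78), and of 29 proteases and inhibitors 17 and 2 (0.94). Of the higher genes of these lists, 3, 6, 2, 1 and 3 in the same order were under 20 CPM in all other cells and were measured through the late cells. Among 27 transcription factors 8 were higher, with Elf5 (1.64), Grhl1 (1.59) and Grhl3 (1.56), and 3 lower, with Trp63 at 106 and 118 CPM against 314 and 319 CPM (−1.50).

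Some calls against all other cells ended at other settings. Jun (0.94) was at −0.0028 and Hspa1a (1.25) at 0.05 when both groups were limited to cells of 10000 to 20000 UMIs. Sprr2a3 (−1.30) and Chil4 (−1.04), each far higher in the few stress-type cells, were at −0.40 and −0.18 when the mean over cells took the place of the summed UMIs. Notch1, a receptor of the Notch pathway, was at −1.13 and at −0.57 in cells of 10000 to 20000 UMIs.

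**Figure D5:**
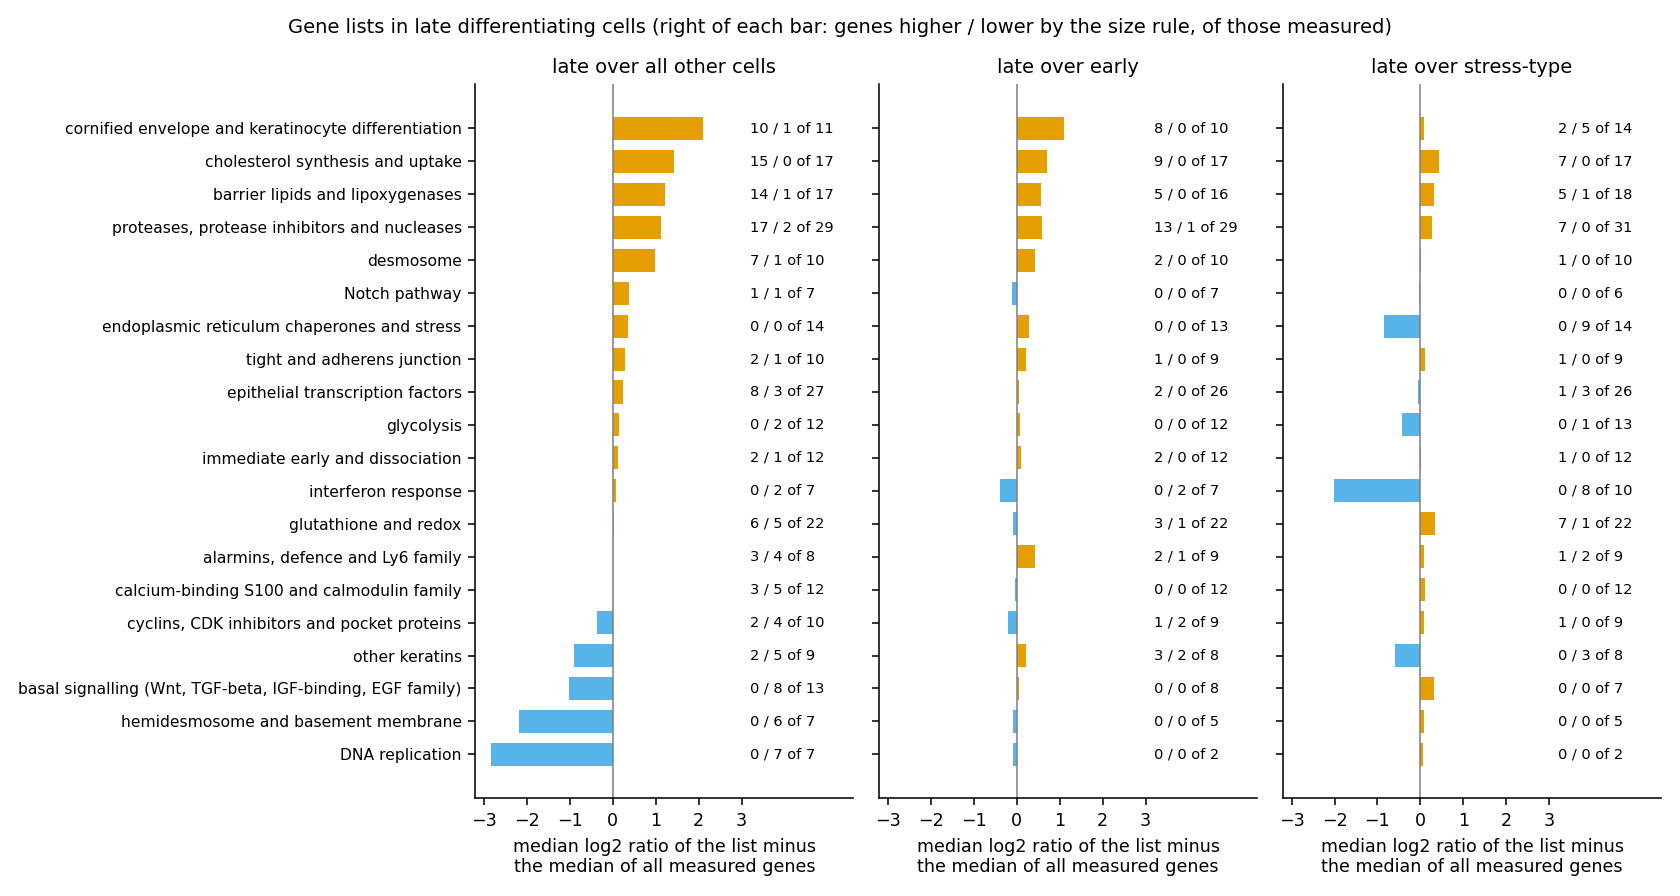
Median log2 ratio of each gene list, less the median of all measured genes, in late over all other cells, over early cells and over stress-type cells, with the numbers of genes higher and lower of those measured beside each bar. Cornified envelope, cholesterol, barrier lipid and protease lists lie to the right against early cells and all other cells, and endoplasmic reticulum and interferon lists lie to the left against stress-type cells.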

How the data were processed

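RNA of single cells was measured with 10x Genomics Chromium in 2 technical libraries of 1 pooled suspension. The deposited values are UMI counts per gene and cell, made with Cell Ranger against mm10 per the submitters' processing notes; the version and the cell-calling settings are not given in the sources used here. Cells with under 500 genes or over 10% mitochondrial UMIs were left out here, and doublets were not called.

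Counts were summed per library and group and given as CPM of all genes. With 1 independent sample, no test was made. A gene was called by size, at least 1.5-fold in each library, provided that the mean over both groups reached 20 CPM. The 17 genes of the rule and the 13 mitochondrial genes were left out of the calls. A sum of 0 was set to 3. Ratios are means of the library log2 ratios, and intervals are 95% exact conditional binomial intervals on the pooled UMIs, exact Poisson for sums and exact binomial for shares; where the libraries differ, each library's ratio is the better guide. The calling script was tested on simulated data.

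Named genes were the 12 highest and lowest by the smaller library ratio against early and all other cells, 8 against stress-type cells and between bins, up to 4 per list, the genes of the rule, Scel, Itgb4, Itga6, Col17a1, Krt5, Krt14, Krt15 and Trp63, and others chosen after their values were seen. The members, the groups and the 20 lists (496 genes, 3 not in the files) were chosen with earlier results of these data known. The list by position in the epidermal differentiation complex, the comparison by leading gene, and the settings with 4 envelope genes or 10000 to 20000 UMIs were added after the data were seen. Of 27998 genes, 27645 (98.7%) matched GENCODE M21 (GRCm38, the build also called mm10) by identifier. Alternatives changed the scaling, the level and fold limits, cell weights, depth, the cell rule and the library. The scripts ran on Python 3.11.15 with pandas 2.3.3, scipy 1.17.1 and numpy 2.4.6, and figures were drawn with matplotlib 3.10.9.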

Additional observations from a re-analysis of the deposited data

How the results depend on the processing

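With 1 pooled suspension, nothing here measures the spread between mice, and the 2 libraries show technical spread only. Late cells were deeper than early cells, and genes with a mean under 20 CPM over the 2 groups were not judged. No paired analysis was possible because the results come from no test. The direction of the named genes was kept in 1334 of 1335 values over the alternatives against all other cells, 769 of 770 against early cells, 711 of 711 against stress-type cells and 657 of 659 between bins. The mean of the library ratios stayed at least 1.5-fold in 1321, 745, 696 and 639 of these. A mean can pass where 1 library does not, so these are not counts of calls kept under the size rule.

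The exceptions in direction were Jun against all other cells (−0.0028) and Hspa1a against early cells (−0.0097), both in cells of 10000 to 20000 UMIs, and, between bins without the 5% of cells with most UMIs, Cdkn2b (−0.29) and Fos (−0.65); the median of the hemidesmosome list between bins was 0.045 with a limit of 50 CPM. The cause was not tested.

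Counts moved most with the size rule itself. With a limit of 50 CPM they were 251 higher and 392 lower against all other cells, 85 and 34 against early cells, 62 and 60 against stress-type cells and 153 and 91 between bins. With no limit they were 919 and 4337, 510 and 711, 699 and 400, and 529 and 1174. At 2-fold they were 195 and 436, 55 and 9, 41 and 35, and 123 and 54. Median-of-ratios scaling gave 653 lower against all other cells and 81 higher against stress-type cells. With 1 library, where only that library had to pass, there were 167 to 169 higher and 97 to 115 lower against early cells, 323 to 343 and 137 to 152 against stress-type cells, and 404 to 423 and 433 to 529 between bins.

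Without the 5% of cells with most UMIs there were 80 higher and 41 lower against early cells and 160 and 132 between bins. In cells of 10000 to 20000 UMIs there were 212 and 504 against all other cells and 82 and 37 against early cells. Thinned cells gave 242 higher against stress-type cells. Late cells with a cornified sum of at least 10 had 125 genes lower than early cells. Those with the 4 envelope genes at 5 or more had 342 higher and 408 lower than early cells and 334 higher than stress-type cells.

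The late share of 8.11%, the mean of the libraries, was 7.34 to 8.88% by library, 10.8% with a mitochondrial limit of 5%, 5.16% with a cornified sum of at least 10, 6.45% with Krt4 and Krt13 at 500 or more, 5.97% without the 5% of cells with most UMIs and 1.61% by the 4 envelope genes alone.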
